A study of Homo sapiens with 6 samples.

Results

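The clustered protocadherin interval was taken as the peaks on chromosome 5 (hg19) with a summit between 140100000 and 140950000, a stretch of 850 kb in band 5q31.3. It held 11 CTCF peaks and 12 BRD8 peaks in Calu3 and 12 BRD8 peaks in 16HBE14o-, 35 of the 35687 peaks in the 3 deposited lists. The peaks were chosen by position alone. Chromatin immunoprecipitation followed by sequencing (ChIP-seq) had been carried out on 2 untreated human lung epithelial cell lines, both grown in DMEM with fetal bovine serum. BRD8 was precipitated with the same Active Motif antibody from Calu3, a lung adenocarcinoma line, and from 16HBE14o-, an immortalised bronchial epithelial line, and CTCF with a Millipore antibody from Calu3 only. Each of the 3 experiments had 2 replicates, which the authors reduced to 1 list of reproducible peaks. The labels name no engineered allele or added agent, and each cultured line stands for 1 source of cells. Peak lists carry no expression, so the cell type of the lines could not be checked against marker genes.

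The clustered protocadherins are cell adhesion proteins encoded by 3 neighbouring gene clusters, alpha, beta and gamma, which neurons use to tell their own branches from those of other cells. Each variable exon of the alpha and gamma clusters has its own promoter and is spliced to constant exons shared by the cluster, while the beta genes are single-exon genes. CTCF binds insulators through its zinc fingers and, with cohesin, holds chromatin loops. At this locus it is known to bind a conserved element in most of the variable promoters and to join the chosen promoter to enhancers lying downstream. BRD8, which carries bromodomains, belongs to the NuA4/TIP60 complex that acetylates histones. In the RefSeq gene table for GRCh38 the order along the chromosome is the alpha genes from PCDHA1 to PCDHAC2, the beta genes from PCDHB1 to PCDHB15, SLC25A2 (a mitochondrial carrier) and TAF7 (a TFIID subunit), the gamma genes from PCDHGA1 to PCDHGC5, and DIAPH1 (a formin). Gene positions on hg19, the build of the peaks, were not used here. No peak is therefore assigned to a gene or placed within a cluster, and sites are given by position. The interval may reach past the clusters, so a site in it need not lie within them.

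Letters of the element that CTCF is known to bind at these promoters can be seen in most promoter sequences of the members. RefSeq promoters (GRCh38.p14, 250 bases before to 50 after a start site) were matched by symbol for 46 of the 52 genes listed as members (PCDHB9 was not listed). PCDHA3, PCDHA13, PCDHB6, PCDHB11, PCDHGA12 and PCDHGC5 were not matched. The stretches of 250 bases before the start site are shown for 1 gene of each cluster, to give the surroundings of the element. All are on the plus strand, and the capitals mark the letters GNCGCT, the CGCT box with the bases before it. The coordinates are those of GRCh38.p14 and were not converted to hg19, so they are not set against the positions of the peaks.
PCDHA4, chr5:140806818-140807067: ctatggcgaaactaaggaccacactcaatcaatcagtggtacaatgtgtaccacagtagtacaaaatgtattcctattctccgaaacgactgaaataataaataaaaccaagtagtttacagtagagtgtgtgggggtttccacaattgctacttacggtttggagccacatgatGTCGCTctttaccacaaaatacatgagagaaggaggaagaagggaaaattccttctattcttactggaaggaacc
PCDHB12, chr5:141208469-141208718: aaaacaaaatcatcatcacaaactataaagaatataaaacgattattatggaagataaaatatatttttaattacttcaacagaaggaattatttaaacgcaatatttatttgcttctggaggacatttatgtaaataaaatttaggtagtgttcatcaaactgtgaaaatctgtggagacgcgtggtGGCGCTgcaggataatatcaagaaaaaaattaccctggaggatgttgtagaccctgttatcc
PCDHGA10, chr5:141412737-141412986: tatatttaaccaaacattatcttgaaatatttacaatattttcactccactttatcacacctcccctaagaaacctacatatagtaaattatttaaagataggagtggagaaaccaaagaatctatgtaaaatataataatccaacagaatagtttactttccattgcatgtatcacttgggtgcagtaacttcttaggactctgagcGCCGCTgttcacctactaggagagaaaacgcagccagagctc

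Windows of 30 bases around the box show how alike the members of a cluster are. Most alpha promoters share the letters before the box, and 9 of the 13 matched alpha genes carried GATGTCGCT. PCDHAC1, the last shown, did not.
PCDHA1: tggccacatgatGTCGCTgtacaccacaaa
PCDHA5: catccacatgatGTCGCTggacaccggaag
PCDHA8: aagccacatgatGTCGCTgtctaccaagaa
PCDHA12: cagtcacatgatGTCGCTctacactcagaa
PCDHAC1: ctagaaggtgtgGTCGCTcacgttcaccgt
Beta promoters share letters on both sides, and 12 of 13 carried GGTGGCGCT. PCDHB1 had only GNCGCT, with other letters around it. GNCGCT alone stood on the gene strand of 32.3% of all genes, so it need not mark the element there.
PCDHB1: ctggggagttgaGTCGCTcaatgcaaattt
PCDHB3: cgaacgcatggtGGCGCTgttgactaagaa
PCDHB5: aggacgcctggtGGCGCTgcaggctaagag
PCDHB13: aggacgcgtggtGGCGCTgcaggataagaa
PCDHB16: agaacgcgtggtGGCGCTgcaggttaagat
Gamma promoters also share letters on both sides of the box, and 13 of 20 carried GNCGCTGTT. PCDHGC4, the last shown, did not.
PCDHGA2: aggcctctgagcGTCGCTgttgaccaccta
PCDHGA5: aggactctgagtGTCGCTgttgaccaaagt
PCDHGA9: aggactctgagcGCCGCTgttgatcaactc
PCDHGB4: ctgactctgggcGCCGCTgttggccaaagt
PCDHGC4: ctgagcccgggaGCCGCTgtctgccaatcg

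On the strand of the gene, GNCGCT was found in 43 of 46 member promoters (93.5%), against 32.3% of the 27305 genes in the table. The members without it on that strand were PCDHA9, PCDHAC2 and PCDHGB7. On the opposite strand the shares were 30.4% of members and 31.4% of all genes. In gamma promoters the reverse complement can overlap the box itself. Over the whole gene table, members included, the cluster forms were rare. GATGTCGCT stood on the gene strand of 24 genes (0.0879%), GGTGGCGCT of 102 (0.374%) and GNCGCTGTT of 164 (0.601%). Of these, 9, 12 and 14 were members. The box lay a median of 57.0 bases before the start site in the alpha promoters, 63.0 in beta and 60.0 in gamma, with a range over members from 201 bases before the start to 1 base after it (PCDHB8). With the 6 letters of the box left out, the 24 flanking bases were identical at a median of 62.5% of positions between alpha promoters, 70.8% between beta and 62.5% between gamma promoters. Between clusters the medians were 37.5% for alpha with gamma and 41.7% for each of the other pairings. The patterns were chosen after these sequences had been read, so the shares describe the members and test nothing. A match is not a site bound in these cells.

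**Figure D1:**
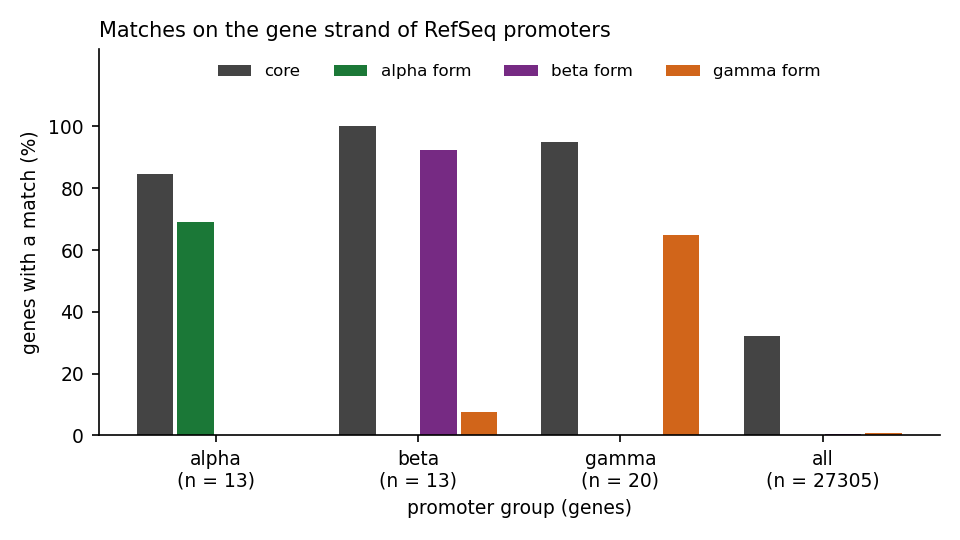
Share of genes (%, y axis) with a match on the gene strand of their RefSeq promoter, for the matched alpha, beta and gamma genes and for all genes of the table (x axis). Bars stand for the core GNCGCT and for the alpha, beta and gamma forms. The core was found in 11 of 13 alpha, 13 of 13 beta and 19 of 20 gamma genes and in 32.3% of all genes. Among the matched alpha, beta and gamma genes, each form was found mainly in its own cluster.

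The CTCF peaks lay unevenly along the interval. The first CTCF summit was 206 kb from the start of the interval, and 9 of the 11 summits fell in the last 162 kb. Numbered in order of position, the sites and the authors' CTCF signal were as follows. Site 1 (chr5:140306124-140306294) had a signal of 99.3 and site 2 (chr5:140420831-140421120) a signal of 17.7. Site 3 (chr5:140787459-140787587) had the highest signal of the interval, 99.5, and site 4 (chr5:140797133-140797238) had 68.1. These strong sites lay 9.69 kb apart. Site 5 (chr5:140855358-140855647) had a signal of 45.3, site 6 (chr5:140892132-140892421) 35.8 and site 7 (chr5:140904369-140904658) 65.0. The last 4 sites formed a tight group. Site 8 (chr5:140940538-140940827) had a signal of 35.2, site 9 (chr5:140940742-140941031) 8.14, site 10 (chr5:140943728-140944017) 25.8 and site 11 (chr5:140947158-140947447) 22.3. Sites 8 and 9 overlapped each other, so the 11 peaks formed 10 separate regions.

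**Figure D2:**
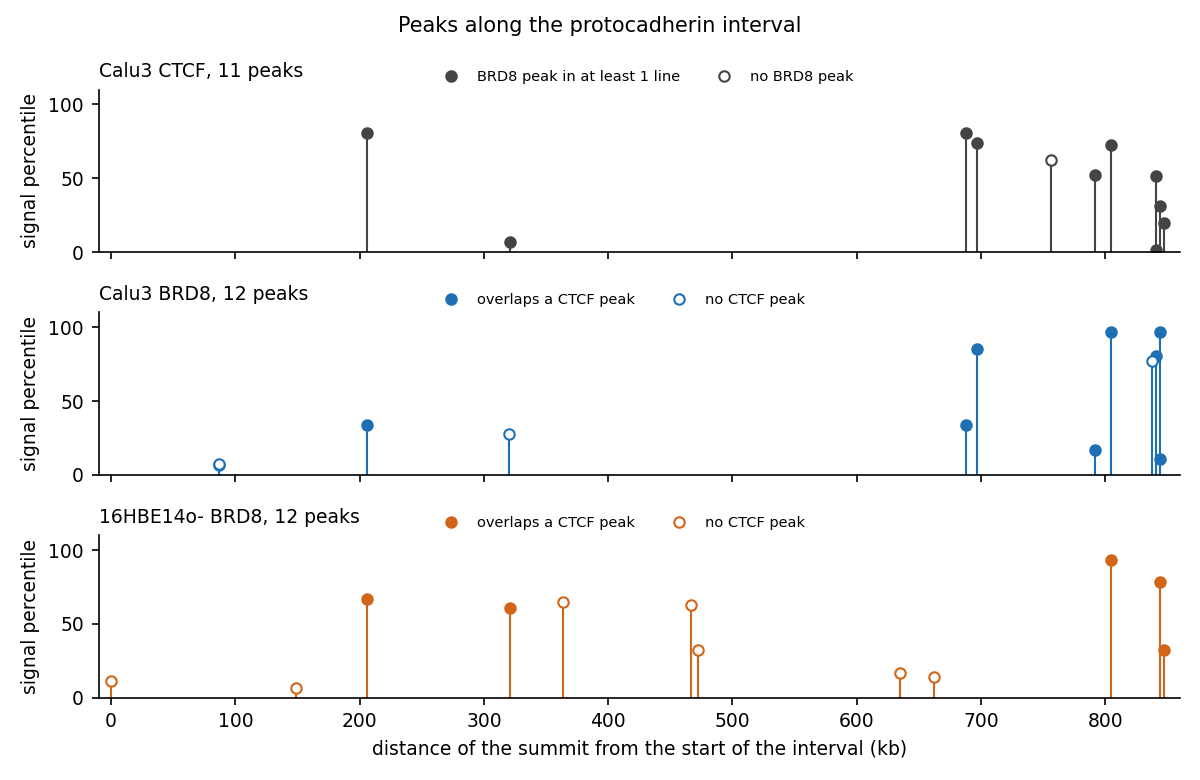
Signal percentile of each peak within its own list (y axis, 100 is the strongest) against the distance of its summit from the start of the interval in kb (x axis), for the 3 lists. Filled points overlap a peak of the other protein and open points do not; CTCF has no peak between 321 and 688 kb, where 16HBE14o- has 5 BRD8 peaks and Calu3 none.

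The 10 gaps between neighbouring CTCF summits ran from 0.204 to 367 kb with a median of 24.2 kb. Over the 16390 gaps of the whole list the median was 50.4 kb and the quartiles were 13.0 and 153 kb, and 7 of the 10 gaps were narrower than that median. The widest gap, of 367 kb, separated sites 2 and 3. It was wider than 89.4% of all gaps in the list, so that gaps of this width were not rare: 1732 were as wide or wider, 116 of them on chromosome 5. The other wide gaps were 115 kb between sites 1 and 2, 58.3 kb between sites 4 and 5, 36.8 kb between sites 5 and 6 and 36.2 kb between sites 7 and 8. From site 6 to site 11, 6 summits fell within 55.0 kb. The short median rested on that end group: with the interval narrowed by 50 kb at each end, which took away sites 7 to 11, the median of the 5 gaps left was 58.3 kb, above that of the whole list. In the upper 50% of the list by signal the median was 36.5 kb.

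**Figure D3:**
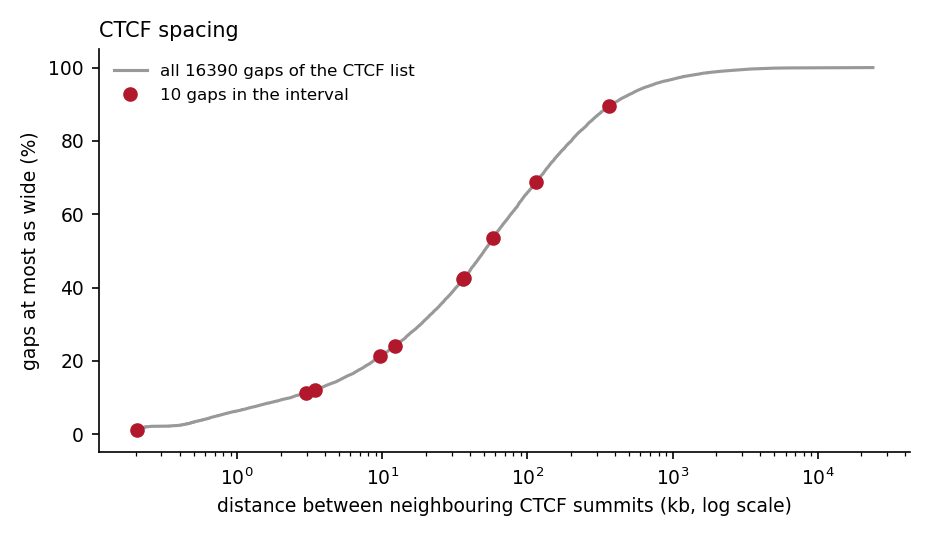
Share of CTCF gaps at most as wide (%, y axis) against the distance between neighbouring CTCF summits in kb (x axis, log scale), for the whole list (line) and for the 10 gaps of the interval (points). The points spread along most of the curve, from 0.204 kb to 367 kb.

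In density the interval stood above chromosome 5 and below its neighbours for CTCF. It held 12.9 CTCF peaks per Mb, against 5.30 over the chromosome and 5.41 over the autosomes and X, lengths that include unsequenced gaps. Stretches of the same length directly before and after it held 19 and 22 CTCF peaks, or 22.4 and 25.9 per Mb. For BRD8 the interval was closer to its neighbours. Calu3 had 12 peaks in it, 15 before and 12 after, and 16HBE14o- had 12 in it, 13 before and 8 after. The CTCF peaks of the interval were of middling strength, with a median percentile of 52.4 and none above 80.6. A percentile is the place of a peak's signal within its own list, where 100 is the strongest.

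BRD8 was called at 10 of the 11 CTCF sites in at least 1 line, while 47.7% of all CTCF peaks had it in neither. Calu3 had BRD8 at 8 of 11 (72.7%, 95% exact Clopper-Pearson interval 39.0 to 94.0%), where 36.1% of all CTCF peaks had it. For 16HBE14o- the count was 5 of 11 (45.5%, 16.7 to 76.6%), against 38.0% of all CTCF peaks, a share near that background. Both lines had BRD8 at 3 sites (27.3%, against 21.8% of all), Calu3 alone at 5 (45.5%, against 14.3%), 16HBE14o- alone at 2 (18.2%, against 16.3%) and neither at 1 (9.09%, 0.230 to 41.3%). On the rest of chromosome 5, 41.8% of 948 CTCF peaks had BRD8 in Calu3 and 44.9% had it in neither line. No test of these differences was made, and with 11 peaks the intervals are wide. Sites 8 and 9 overlapped, and with overlapping peaks merged Calu3 had BRD8 at 7 of 10 (70.0%, whole list 36.4%). The Calu3 share depended on what counted as shared. It was 5 of 11 (45.5%) with summits within 100 bp, where the whole list gave 32.6%. By a reciprocal overlap of at least 50% it was 3 of 11 (27.3%, whole list 24.5%), and sites with BRD8 in neither line then numbered 5 (45.5%, whole list 53.7%). At sites 1, 3 and 4 the CTCF peaks were too narrow to cover 50% of the Calu3 BRD8 peaks on them. In the upper 50% of each list by signal, 3 of 7 CTCF peaks had BRD8 in Calu3 (42.9%, whole list 36.5%) and 3 of 7 had it in neither line (42.9%, whole list 47.3%), so both shares were then near those of the whole list. For 16HBE14o- the order turned there, with 2 of 7 (28.6%, whole list 36.2%), and also with each list cut to its 9505 strongest peaks (28.6%, whole list 50.9%). It turned as well with the interval narrowed by 50 kb at each end, with 2 of 6 (33.3%, whole list 38.0%).

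**Figure D4:**
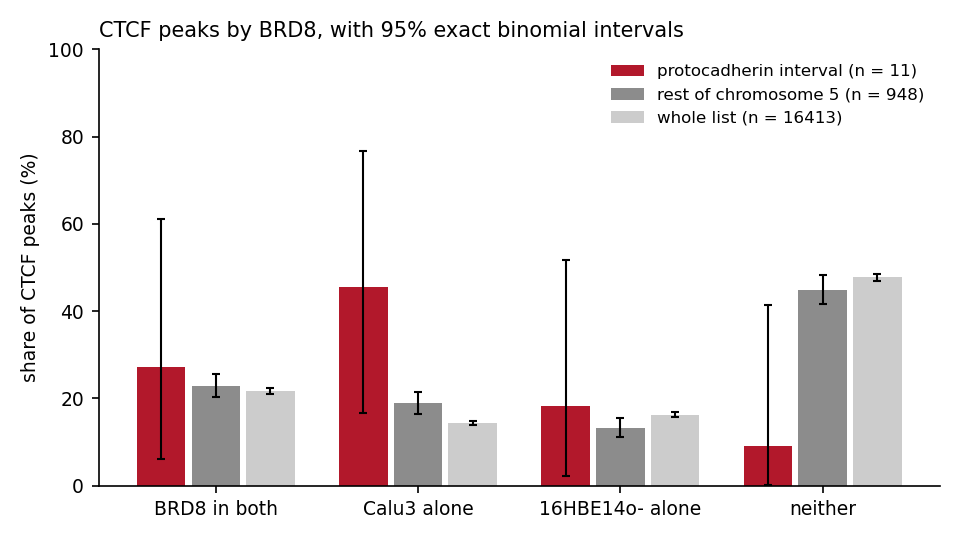
Share of CTCF peaks (%, y axis) by the line in which BRD8 was called (x axis, from both lines to neither), in the interval, on the rest of chromosome 5 and in the whole list, with 95% exact binomial intervals as error bars. The share with BRD8 in neither line was 9.09% in the interval and 47.7% in the whole list, and the interval bars rest on 11 peaks.

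The 3 CTCF sites with BRD8 in both lines were sites 1, 7 and 10. At site 7 BRD8 was strong in both lines: its signal was 95.9 in Calu3 (chr5:140904415-140904635, rank 321 of 9769, percentile 96.7) and 51.7 in 16HBE14o- (chr5:140904420-140904643, rank 651 of 9505, percentile 93.2). This was the strongest 16HBE14o- peak of the interval. Site 10 carried the strongest Calu3 BRD8 peak of the interval (chr5:140943808-140943996, signal 97.4, rank 310, percentile 96.8) and a 16HBE14o- peak at percentile 78.5 (chr5:140943751-140943974, signal 38.5). Its CTCF peak was weak, at percentile 30.9, and in the same decile of CTCF signal 11.9% of peaks had BRD8 in both lines. At site 1 CTCF was strong and BRD8 less so. Its CTCF peak stood at percentile 80.6, with BRD8 at percentile 34.1 in Calu3 (chr5:140306086-140306561, signal 27.1) and 67.0 in 16HBE14o- (chr5:140306075-140306298, signal 33.9). Among these 3 sites CTCF was strongest at site 1, where Calu3 BRD8 was weakest. Signals of different lists are set side by side only as ranks within each list.

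Of the 5 sites with BRD8 in Calu3 alone, sites 3 and 4 had the strongest CTCF. Site 3 carried a weak Calu3 BRD8 peak (chr5:140787345-140787820, signal 26.9, percentile 33.5), while site 4, 9.69 kb further on, carried a strong one (chr5:140796924-140797399, signal 54.6, percentile 85.3). The nearest 16HBE14o- BRD8 summits to these 2 Calu3 peaks were 25.4 and 35.0 kb away. Sites 8 and 9 shared a single Calu3 BRD8 peak (chr5:140940435-140940910, signal 49.2, percentile 80.8), whose summit lay 10 bp from that of site 8 and 214 bp from that of site 9. Site 9 was also among the weakest CTCF peaks of the whole list, at percentile 1.22. At site 6 the BRD8 peak (chr5:140891831-140892306, signal 20.8, percentile 16.9) overlapped CTCF at its edge, with the summits 208 bp apart. With summits within 100 bp as the rule, sites 6 and 9 had no BRD8 in Calu3, and neither had site 1, where the summits were 106 bp apart.

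The sites with BRD8 in 16HBE14o- alone, sites 2 and 11, were both weak in CTCF, at percentiles 6.82 and 19.8. In the lowest decile of CTCF signal, which holds site 2, 9.45% of all CTCF peaks had BRD8 in 16HBE14o-. BRD8 at site 2 was at percentile 60.9 (chr5:140420826-140421049, signal 31.9), and at site 11 at percentile 32.7 (chr5:140947163-140947386, signal 25.6). Near site 2 Calu3 had a BRD8 peak of its own (chr5:140419735-140420210, signal 25.3, percentile 27.7). It ended 615 bp before the 16HBE14o- peak began, with the BRD8 summits 965 bp apart, so that BRD8 was called in both lines at neighbouring positions but CTCF at the 16HBE14o- position only. Site 5 was the only CTCF site with BRD8 in neither line. Its CTCF peak was above the middle of the list, at percentile 62.6, in a decile where 44.3% of CTCF peaks had BRD8 in neither line.

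**Figure D5:**
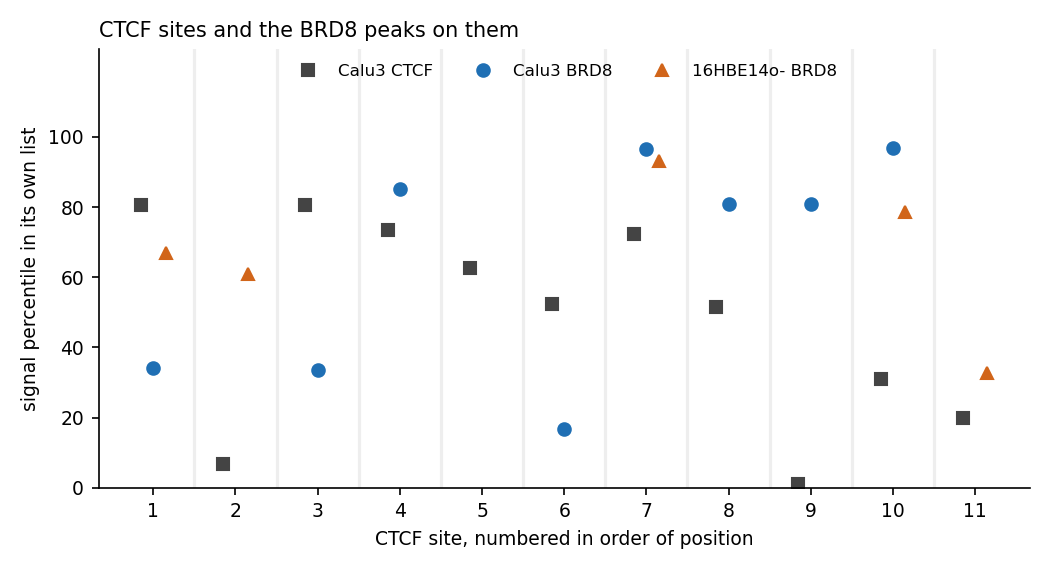
Signal percentile within its own list (y axis) of the CTCF peak and of the strongest BRD8 peak overlapping it in each line, for the 11 CTCF sites in order of position (x axis); a missing symbol means that no BRD8 peak was listed. BRD8 stands highest at sites 7 and 10 in Calu3, at percentiles 96.7 and 96.8, while CTCF stands highest at sites 1 and 3, both at 80.6.

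Where CTCF and BRD8 peaks overlapped, 16HBE14o- BRD8 summits lay closer to the CTCF summit than several in Calu3. The 5 distances in 16HBE14o- ran from 10 to 38 bp with a median of 28.0 bp (19.0 bp over the whole list). The 8 in Calu3 ran from 10 to 214 bp with a median of 55.0 bp (31.0 bp over the whole list), and 4 of them were within 50 bp. The shortest and the longest were of the same BRD8 peak, measured from sites 8 and 9. The usual peak width was 476 bp for Calu3 BRD8 and 224 bp for 16HBE14o- BRD8, so the Calu3 peaks could meet a CTCF peak over a longer distance.

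From the side of BRD8, 4 of 12 Calu3 peaks overlapped a 16HBE14o- BRD8 peak (33.3%, 9.92 to 65.1%, whole list 50.1%). In the other direction it was 3 of 12 (25.0%, 5.49 to 57.2%, whole list 43.4%). Both of these intervals include the value of the whole list. Which line had more of its BRD8 peaks at CTCF depended on the overlap rule. In Calu3 8 of 12 BRD8 peaks overlapped CTCF (66.7%, 34.9 to 90.1%), against 70.5% of the whole list. In 16HBE14o- it was 5 of 12 (41.7%, 15.2 to 72.3%), against 65.3% of the whole list and 71.5% of the 474 peaks on the rest of chromosome 5. With summits within 100 bp both lines had 5 of 12 (41.7%), where the whole lists gave 54.8% in Calu3 and 64.3% in 16HBE14o-. By the reciprocal rule the order between the lines turned, with 3 of 12 in Calu3 (25.0%, whole list 41.9%) and 5 of 12 in 16HBE14o- (41.7%, whole list 61.9%). That rule could not be met by the Calu3 BRD8 peaks of 476 bp at sites 1, 3 and 4, where CTCF peaks were narrow. The difference between the lines was not tested. The share was below that of the whole list under all 9 alternatives run in each line, but these drew largely on the same peaks. In Calu3 it was near the whole list in some, with 70.0% against 70.6% after overlapping peaks were merged. The 16HBE14o- share was 16.7% (whole list 50.9%) with all lists shortened to equal length. For neither line was the departure from the whole list tested, and the interval of each main share includes the value of its whole list. CTCF binding was measured in Calu3 alone, so nothing is known here of CTCF in 16HBE14o- at these peaks. From site 3 to the end of the interval, a stretch picked after the positions were seen, lay 8 of the 12 Calu3 BRD8 peaks, 7 of them at CTCF, but 3 of the 12 16HBE14o- peaks, all 3 at CTCF. Before it 16HBE14o- had 9 BRD8 peaks, 2 of them at CTCF, and Calu3 had 4, 1 of them at CTCF.

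BRD8 peaks called in 16HBE14o- and met by neither Calu3 list numbered 7 of 12 (58.3%, 27.7 to 84.8%), against 28.6% of the whole 16HBE14o- list and 21.7% on the rest of chromosome 5. Of these, 5 lay in the widest CTCF gap, where Calu3 had no BRD8 peak either. The first 2 of them were of middling strength: chr5:140464057-140464280 (signal 33.2, percentile 65.1) and chr5:140566530-140566753 (signal 32.6, percentile 63.1). The other 3 were weaker, chr5:140571757-140571980 (signal 25.6, percentile 32.7), chr5:140734497-140734720 (signal 22.7, percentile 16.9) and chr5:140762074-140762297 (signal 22.1, percentile 13.9). The remaining 2 lay nearer the start of the interval, chr5:140249061-140249284 (signal 20.6, percentile 6.99) and chr5:140099893-140100116 (signal 21.7, percentile 11.7). The summit of the last was 4 bp inside the limit, and the nearest 16HBE14o- peak outside it was 81.1 kb before the limit (chr5:140018825-140019048, signal 19.8). As a group the 7 peaks had a median percentile of 16.9, against 67.0 for the 5 at CTCF sites. In the whole list the medians were 31.5 without and 60.5 with CTCF, so weaker signal without CTCF was common to both.

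In Calu3 4 BRD8 peaks had no CTCF peak, and none of these 4 overlapped a 16HBE14o- BRD8 peak (33.3%, 9.92 to 65.1%, against 22.8% of the whole Calu3 list). The strongest was chr5:140937360-140937835 (signal 46.0, percentile 76.9), 3.08 kb from the CTCF summit of site 8. It lay in the group of BRD8 and CTCF peaks at the end of the interval. The peak near site 2 has been given above. The other 2, chr5:140186352-140186827 (signal 11.5, percentile 6.67) and chr5:140186624-140187099 (signal 11.9, percentile 7.10), overlapped each other, with summits 272 bp apart, and were the weakest Calu3 BRD8 peaks of the interval. A second overlapping pair lay at site 10, where the weaker peak (chr5:140943867-140944342, signal 14.9, percentile 10.7) adjoined the strongest. After overlapping peaks were merged, Calu3 had 10 BRD8 regions in the interval and 16HBE14o- 12.

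Merging the peaks of all 3 lists gave 20 regions in the interval. All 3 lists met in 3 of them. Calu3 BRD8 with CTCF made up 4 and 16HBE14o- BRD8 with CTCF 2, CTCF stood alone in 1, and BRD8 stood alone in 3 regions in Calu3 and in 7 in 16HBE14o-. No region held BRD8 of both lines without CTCF. Merged regions were not counted over the whole lists. There 70.5% of Calu3 BRD8 peaks overlapped CTCF and 22.8% met neither CTCF nor 16HBE14o- BRD8. For 16HBE14o- the matching shares were 65.3% and 28.6%, so BRD8 of both lines without CTCF was uncommon there too. Of the Calu3 BRD8 peaks 4 of 12 (33.3%) overlapped a 16HBE14o- BRD8 peak, against 50.1% of the whole list, and in the other direction it was 3 of 12 (25.0%, 5.49 to 57.2%), against 43.4%. The nearest CTCF peak beyond the end of the interval lay 21.8 kb after it (chr5:140971629-140971918, signal 39.8), and the nearest before its start 81.1 kb away (chr5:140018885-140019012, signal 84.6).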

How the data were processed

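BRD8 was mapped by ChIP-seq in Calu3 and 16HBE14o- and CTCF in Calu3, with 2 replicates each. The authors reduced the 2 replicates of an experiment to 1 list by irreproducible discovery rate (IDR), per the series' design text. Per the file headers, the lists are in narrowPeak format with positions on hg19. The aligner, peak caller, control library and IDR settings are not given in the sources used here, and read depth is unknown. The deposited values are the authors' signal per peak, a display score from 540 to 1000, a further score in the q-value column, of unstated scale, and, as another kind of number, the summit's distance from the peak's start. The signal ranks peaks within a list and was not compared between lists. Values of single replicates were not used here, so no test across replicates was made, and intervals cover counting error only.

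Peaks were assigned to the interval by summit and compared by overlap of at least 1 bp in pandas 2.3.3 and numpy 2.4.6 (Python 3.11.15), with exact intervals from scipy 1.17.1. The overlap code was tested on simulated data. Lengths and bands of hg19 came from GenomeInfoDb 1.38.1 and circlize 0.4.16. Figures used matplotlib 3.10.9. Starts and summits are 1-based; the limits apply to the 0-based summit. Promoter sequences are RefSeq's (GRCh38.p14), searched on both strands; for a gene with 2 listed start sites the first was measured. Where a promoter held several boxes, the one nearest the members' median position was used. The interval, the gene list and the rules for named sites (the 10 strongest CTCF peaks, all sites with BRD8 in both lines, all BRD8 peaks without CTCF, the 5 strongest BRD8 peaks per line and the sites at the 5 widest gaps) were chosen with earlier results of these data known; other sites were added for completeness. Alternatives covered the overlap rule, peak width, list length, merging, signal and the limits of the interval.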

Additional observations from a re-analysis of the deposited data

How the results depend on the processing

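Of 74 values computed under alternatives for 12 results, 64 stayed within the 95% interval of the main value or, for counts of peaks, within a factor of 1.5. Peak counts, spacing and percentile were left out of this tally for lists of equal length, where 7 CTCF peaks remained in the interval. With so few peaks the intervals of the shares are wide, so staying within them says little. For CTCF sites with BRD8 in Calu3 the interval was 39.0 to 94.0%. A fall from 72.7% to 42.9%, in the upper 50% by signal, therefore counted as within. By a reciprocal overlap of at least 50%, the share of CTCF sites with BRD8 fell to 27.3% in Calu3, sites with BRD8 in neither line rose to 45.5%, and Calu3 BRD8 peaks at CTCF came to 25.0%. At sites 1, 3 and 4 the CTCF peaks were 171, 129 and 106 bp wide, inside Calu3 BRD8 peaks of 476 bp. Such narrow peaks cannot cover 50% of those BRD8 peaks, so the rule could not be met there. The cause of the other changes was not tested. In the upper 50% of each list by signal, the interval held 7 CTCF, 5 Calu3 BRD8 and 6 16HBE14o- BRD8 peaks, and 42.9% of its CTCF peaks had BRD8 in neither line, near the 47.3% of the whole list. With the interval narrowed by 50 kb at each end it held 6 CTCF and 7 Calu3 BRD8 peaks, since sites 7 to 11 are near its end: 5 CTCF peaks lay in the part taken away. The longer pattern GNNGNCGCT was found in 71.7% of member promoters, against 15.6% of all genes. The share of CTCF sites with BRD8 in Calu3 was above, and the share with BRD8 in neither line below, that of the whole list in all 9 alternatives. For 16HBE14o- and for both lines the order turned, with 6 and 5 of 9 above. The alternatives drew largely on the same peaks and are not independent of each other. Summits within 1 kb were an alternative chosen after seeing the data. No paired analysis was possible because each experiment is 1 list pooled over its 2 replicates, and for the same reason no replicate could be left out.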
